A study of Mus musculus with 81 samples.

Results

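Blood of previously cured mice was compared between day 73, the 7th day after an EG7.OVA rechallenge, and day 126, the eve of an EL4 challenge. The comparison holds 14 of the 81 TCRβ libraries of the study, chosen by their labels and joined into 7 pairs by the animal code. It addresses what remained in the blood of the T-cell response to the second EG7.OVA challenge 53 days later. All animals were CD45.1 Pep Boy mice, labelled B6.SJL-Ptprc<a> Pepc<b>/BoyJ. Each had carried an EG7.OVA tumor and had received mRBC-OVA-4-1BBL-IL-12 after a transfer of naïve OT-1 cells, and each was rechallenged with EG7.OVA on day 66 without further treatment. EG7.OVA is an ovalbumin-expressing derivative of the mouse T-cell lymphoma EL4. mRBC-OVA-4-1BBL-IL-12 are mouse red blood cells that carry an OVA peptide on MHC class I, the costimulatory ligand 4-1BBL and the cytokine IL-12. The labels give no age. The hosts kept their own T cells, so a receptor other than OT-1 can come from the host, and there was 1 bleed per mouse and day. Days 65 and 136 of the same mice are given beside the comparison where they bear on it.

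A T cell carries a TCRβ chain that is built by joining a V, a D and a J segment with random bases added or removed at the joints. The junction encodes the CDR3, the loop that contacts the peptide, and the joined gene is inherited by every daughter cell, so templates of 1 rearrangement count the cells of a clone. After antigen is cleared most effector T cells die, a phase called contraction, and a smaller number persist as memory cells. OT-1 cells carry a transgenic TCR that recognizes an OVA peptide on H-2Kb, which makes them a clone of known specificity among the receptors of the host.

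The rearrangements on which the comparison turned are shown with the bases of the CDR3 in capitals. They are the deposited 87-base reads, 5′ to 3′, and the codon of the last CDR3 residue lies beyond the end of each. The first is the leading rearrangement of OT-1, which joins TCRBV12-01 to TCRBJ02-07 (Trbv12-1 and Trbj2-7 in RefSeq). The next pair are the largest other clones of mice 5 and 4 on day 73, the fourth is the clone that rose most in templates by day 126, and the last pair encode 1 CDR3 in different mice with different J segments.
OT-1, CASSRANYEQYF: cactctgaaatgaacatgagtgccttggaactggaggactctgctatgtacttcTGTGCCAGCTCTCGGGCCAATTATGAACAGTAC
Mouse 5, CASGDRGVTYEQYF: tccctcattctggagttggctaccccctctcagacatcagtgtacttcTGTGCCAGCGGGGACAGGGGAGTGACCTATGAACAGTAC
Mouse 4, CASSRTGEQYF: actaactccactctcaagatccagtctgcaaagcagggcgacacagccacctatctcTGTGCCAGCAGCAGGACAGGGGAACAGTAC
Mouse 7, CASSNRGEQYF: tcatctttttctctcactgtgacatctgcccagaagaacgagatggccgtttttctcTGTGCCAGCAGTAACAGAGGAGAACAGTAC
Mouse 2, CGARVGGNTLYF: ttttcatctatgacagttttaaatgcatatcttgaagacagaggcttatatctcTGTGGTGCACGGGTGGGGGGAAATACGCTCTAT
Mouse 3, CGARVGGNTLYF: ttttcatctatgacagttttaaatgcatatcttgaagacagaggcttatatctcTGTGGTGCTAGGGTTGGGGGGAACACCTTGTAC

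Libraries held 4281 to 9625 productive (in-frame) templates on day 73 and 6340 to 12836 on day 126, with more on day 126 in 7 of 7 mice. The title of the day 73 library of mouse 2 names mouse 1, and its animal code, that of mouse 2, was followed. It shared 21 rearrangements with the day 126 library of mouse 2, 9 with that of mouse 1, 17 with mouse 4 and 18 with mouse 6. With the day 65 libraries it shared 35 in mouse 2 and at most 15 in another mouse (mouse 6). With those of day 136 it shared 36 in mouse 2 and 33 in mouse 5. Over all mice, 21 to 61 rearrangements were shared between the day 73 and day 126 bleeds of a mouse and 7 to 23 between those of different mice. The 21 of mouse 2 thus lies within the range of different mice. Rearrangements seen with 1 template made up 71.5% to 76.7% of the non-OT-1 rearrangements of a library on day 73 and 80.2% to 82.3% on day 126. The same values were 68.5% to 73.1% on day 65 and 81.1% to 82.3% on day 136, so the earlier pair of bleeds and the later pair did not overlap. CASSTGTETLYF led the tumors of mice given mRBC-CTRL (unmodified mouse red blood cells) in earlier results. It was taken as a marker of tumor cells, which was not tested. It had 0 templates in every library of the 7 mice on the 4 days. The highest limit that a count of 0 allowed for it on days 73 and 126 was 0.0701%, in mouse 2.

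The OT-1 share, which counts templates encoding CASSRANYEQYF and divides them by all productive templates of the library, fell in each of the 6 mice that carried it. Mice 1, 3, 4, 5, 6 and 7 had 32.3%, 25.3%, 33.8%, 24.0%, 8.38% and 45.0% on day 73. On day 126 they had 11.4%, 7.56%, 15.6%, 3.66%, 0.916% and 12.3%. Mouse 2 had 0 OT-1 templates of 4281 on day 73 and of 6340 on day 126, which allows up to 0.0701% and 0.0473%. It had 3 OT-1 templates of 12409 on day 136. The fraction kept, the day 126 share divided by the day 73 share, was lowest in mouse 6 at 10.9% (95% Katz interval 8.94% to 13.4%) and highest in mouse 4 at 46.2% (95% Katz interval 44.0% to 48.5%). Between them stood mouse 5 at 15.3%, mouse 7 at 27.4%, mouse 3 at 29.9% and mouse 1 at 35.4%. The intervals of mice 6 and 4 did not overlap, but they cover counting error only, and the spread between repeated bleeds of a mouse was not measured. The mean log2 of the fraction kept was -2.02 (SD 0.78, n = 6), a 4.06-fold fall (two-sided exact sign-flip test, p = 0.0312, the lowest that 6 mice can give). On day 126 OT-1 was still 1.65-fold (mouse 3) to 13.1-fold (mouse 6) its day 65 level in these 6 mice. The day 65 level of mouse 6 rested on 8 OT-1 templates of 11454, and the next highest ratio was 5.95-fold in mouse 5. Shares are relative within a library, so fewer cells of one clone and more of all others cannot be told apart.

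A clone was called large when a productive rearrangement other than OT-1 had at least 5 templates and at least 0.1% of the non-OT-1 templates, the denominator used for all other clones below. On day 73 there were 62 large clones, 11, 5, 4, 7, 9, 9 and 17 in mice 1 to 7. The smallest inside this limit held 0.1004% (6 templates, mouse 3) and the largest outside it 0.0998% (5 templates, mouse 5). Together they held 1.90%, 3.64%, 0.619%, 5.27%, 8.24%, 5.53% and 6.16% of non-OT-1 templates in mice 1 to 7 on day 73. On day 126 the same clones held 0.930%, 0.710%, 0.239%, 2.28%, 1.61%, 3.06% and 3.93%. The summed share was thus lower on day 126 in 7 of 7 mice, with a fraction kept of 19.5% (mouse 2) to 63.8% (mouse 7). Over all productive templates, the denominator used for OT-1, the fraction kept was 64.1%, 19.5%, 47.8%, 55.1%, 24.7%, 59.8% and 102% in mice 1 to 7. On that denominator the sum was not lower in mouse 7, and the clones kept more than OT-1 in each of the 6 mice that carried OT-1. Because these clones were picked for a high value on day 73, part of any fall is fixed by the choice, and the values are a description with no test.

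**Figure D1:**
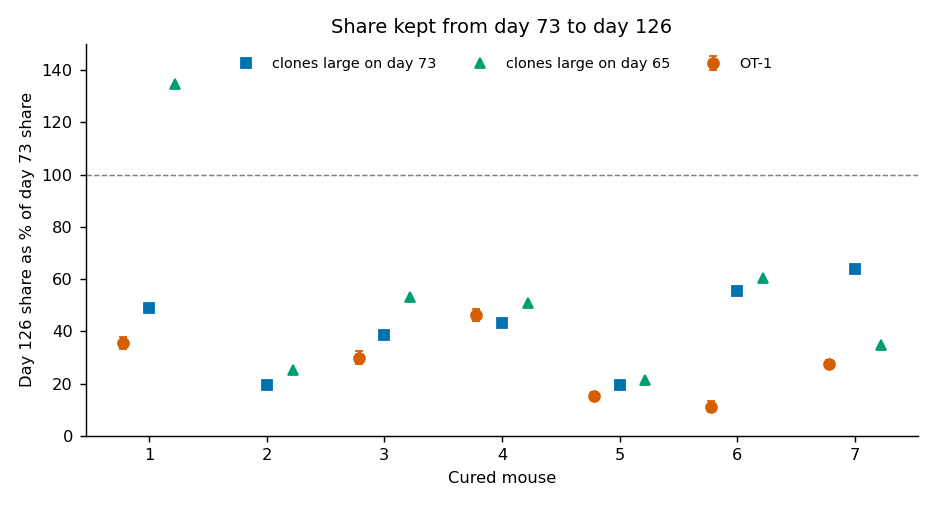
Day 126 share as percent of the day 73 share in each cured mouse, for OT-1 (circles, bars are 95% Katz intervals for counting error) and for the summed shares of clones large on day 73 (squares) and on day 65 (triangles), and the dashed line marks an unchanged share. OT-1 is a share of all productive templates and the clones are shares of non-OT-1 templates. As drawn, OT-1 lay lowest in 5 of the 6 mice that carried it, with mouse 4 at 46.2% against 43.3% for the day 73 clones, which kept 55.1% there when taken as a share of all productive templates.

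Single large clones fared unequally. Of the 62, 49 kept less than 50% of their share, 10 kept between 50% and all of it, and 3 had an equal or larger share on day 126. The median clone kept 24.8%, and 13 clones (21.0%) had 0 templates on day 126. Of these 13, 8 also had 0 templates on day 136. Whether a clone had been seen before the rechallenge split them. All 19 clones with 0 templates on day 65 kept less than 50%, and 12 of them were at 0 on day 126. Of the 43 clones already seen on day 65, 30 kept less than 50% and 1 was at 0, with a median of 36.4% kept. Of the 57 large clones in the 6 mice with OT-1, 28 kept less than OT-1 did in the same mouse, or 25 when both were divided by all productive templates. A clone with 0 templates on day 65 was chosen as high on day 73 from a lower start, so this split is a description too.

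The same choice made over other intervals gave other fractions. The 33 clones large on day 65 kept a median of 98.4% of their share 8 days later, on day 73, and the 42 clones large on day 126 kept a median of 68.4% over the 10 days to day 136. Read backwards, the 42 clones large on day 126 had a median day 73 share of 103% of their day 126 share, and 15 of them (35.7%) had 0 templates on day 73. Clones chosen on day 73 thus had a median of 24.8% on day 126, with 21.0% of them at 0. Clones chosen on day 126 had the higher median on day 73 but also the larger part at 0. How much of either was fixed by the choice was not tested.

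**Figure D2:**
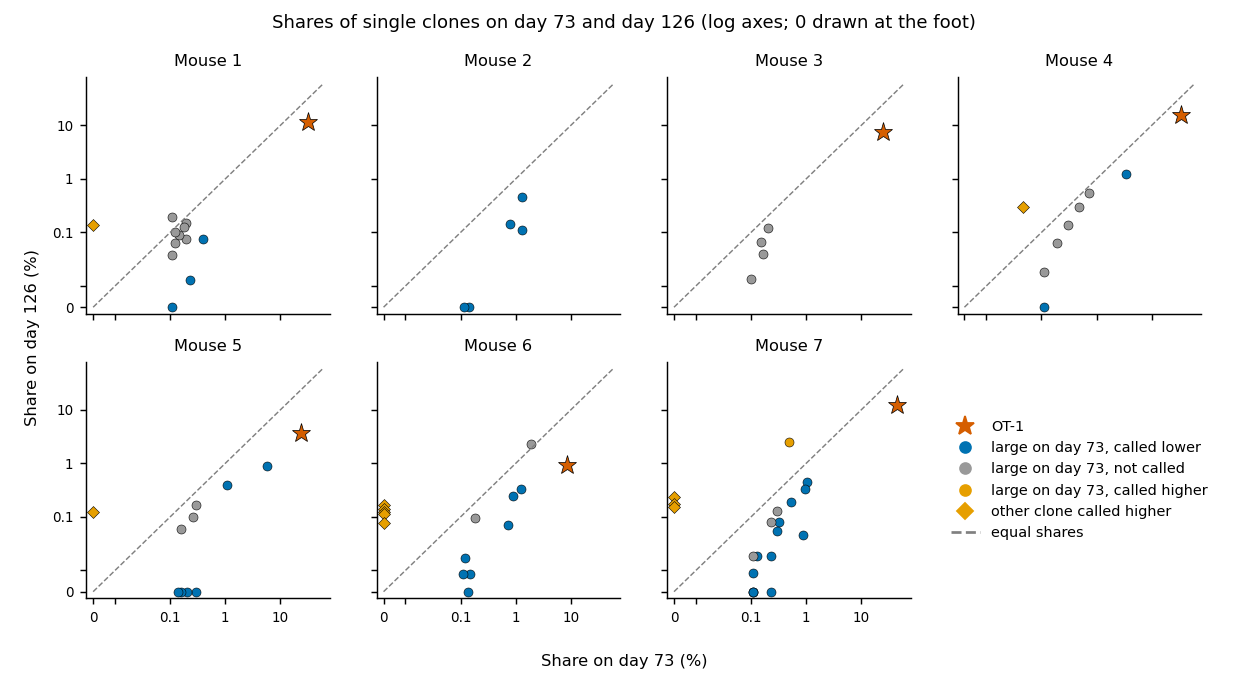
Share of single clones on day 73 (horizontal) and day 126 (vertical) in percent, on log axes, with a panel for each mouse. OT-1 (star) is given as percent of productive templates and the other clones as percent of non-OT-1 templates, and points below the dashed line had a lower share on day 126. Most of the 62 large clones lie below the line, 13 of them at 0, while 1 large clone of mouse 7 and the clones drawn as diamonds were called higher.

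To compare clones with OT-1 without a choice made on either bleed, clones were picked on day 65, before the rechallenge. There were 33, with 2, 3, 3, 7, 7, 5 and 6 in mice 1 to 7. Their summed share on day 65 was 0.343%, 0.390%, 0.408%, 2.41%, 1.83%, 3.27% and 0.776% of non-OT-1 templates. On day 73 it was 0.142%, 0.187%, 0.351%, 5.15%, 7.37%, 5.02% and 3.09%. It was thus lower on day 73 than on day 65 in mice 1, 2 and 3 and higher in mice 4 to 7. On day 126 it was 0.191%, 0.0473%, 0.186%, 2.61%, 1.58%, 3.02% and 1.08%. From day 73 to day 126 the sum fell in 6 of 7 mice. It rose in mouse 1, where the clones had 8 templates on day 73 and 15 on day 126. The mean change was -1.80 percentage points (SD 2.05, n = 7, two-sided exact sign-flip test, p = 0.0312, adjusted p = 0.0347 over the family of 10 such tests). It was -1.13 percentage points without mouse 5 (exact sign-flip test, p = 0.0625), and without any single one of mice 2 to 7 the exact p was 0.0625. Without mouse 2, whose day 73 title names mouse 1, it was -2.07 percentage points and the log2 fraction kept was -0.99, and neither passed (exact sign-flip test, p = 0.0625). The mean log2 of the fraction kept was -1.11 (SD 0.86, n = 7), a 2.17-fold fall (exact sign-flip test, p = 0.0312, adjusted p = 0.0347). The sums were small in mice 1 to 3, and 1 clone led most of them. Without the clone of each mouse with the most day 126 templates, an alternative chosen after seeing the data that lowers the day 126 sum by its choice, the fraction kept was 16.9%, 44.1%, 78.1%, 41.0%, 24.1% and 30.3% in mice 2 to 7, and the single clone left in mouse 1 had 0 templates on day 126. With OT-1 left in the denominator of the clones the log2 mean was -0.80 and did not pass (exact sign-flip test, p = 0.0781).

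OT-1 kept a smaller fraction than these clones in 6 of the 6 mice that carried it. In mice 1 and 3 these clones had a lower share on day 73 than on day 65. There OT-1, which had risen, was set beside clones that had not. The clones kept 135%, 53.0%, 50.8%, 21.5%, 60.3% and 34.8% in mice 1, 3, 4, 5, 6 and 7, against 35.4%, 29.9%, 46.2%, 15.3%, 10.9% and 27.4% for OT-1. The clone sums were given no interval, and in mouse 3 they rested on 21 and 14 templates. Without the leading clone of each mouse, the alternative above that lowers the day 126 sum, the clones kept 24.1% in mouse 6. They then kept less than OT-1 in mouse 1, with 0 templates on day 126, and still more in mice 3, 4, 5, 6 and 7. The gap was 5.52-fold in mouse 6 and 1.10-fold in mouse 4, or 5.97-fold and 1.40-fold with both over all productive templates. On the log2 scale the difference was -1.03 (SD 0.93, n = 6), equal to 2.04-fold (exact sign-flip test, p = 0.0312, the smallest possible, adjusted p = 0.0347). Over all productive templates for both it was -1.39 (exact sign-flip test, p = 0.0312). With large clones defined from 0.2% it was -1.26 (exact sign-flip test, p = 0.0625). In mouse 2, which had no OT-1 template, the day 65 clones kept 25.3% and the day 73 clones 19.5%.

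**Figure D3:**
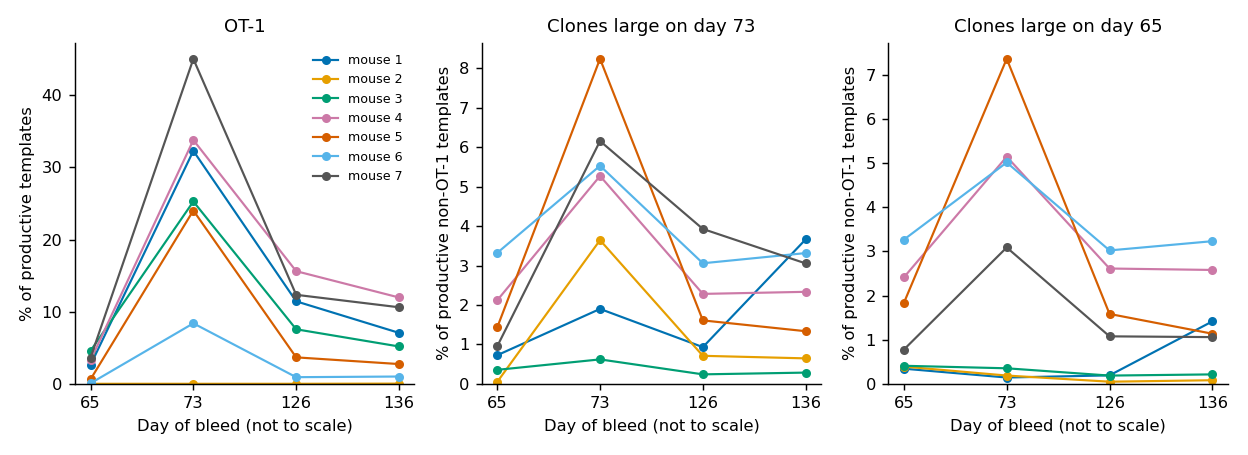
Shares of OT-1 (percent of productive templates) and of the clones large on day 73 and on day 65 (percent of non-OT-1 templates) on the 4 days of bleeding in each mouse, with a line per mouse and the days spaced evenly. OT-1 peaked on day 73 in the 6 mice that carried it, and the clones large on day 73 peaked there in 6 of 7 mice, the exception being mouse 1 at 3.66% on day 136.

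Clones that had risen at the rechallenge were followed as a further description. Between day 65 and day 73, 51 of 193 non-OT-1 clones tested were called higher (26.4%, Fisher's exact test per clone with Benjamini-Hochberg adjustment within the mouse), and day 73 entered that choice. Of these 51, 50 had a lower share on day 126 than on day 73, and 23 had 0 templates on day 126. The fraction kept of their summed share was 17.2% (mouse 5) to 38.3% (mouse 4) in mice 1 to 6 and 70.7% in mouse 7. Mouse 7 stood above the others, and its sum on day 126 was led by the clone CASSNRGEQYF. Of the 51 clones, 25 had a larger share on day 126 than on day 65.

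Each clone with at least 5 templates in both bleeds together was then compared between day 73 and day 126 within its mouse with a two-sided Fisher's exact test, which compares 2 libraries and not conditions. Of 246 clones tested, 47 were called lower on day 126 (19.1%) and 12 higher (4.88%) at an adjusted p under 0.05. With OT-1 in the denominator the split was 39 lower to 22 higher. The lower calls numbered 3, 5, 0, 7, 7, 12 and 13 in mice 1 to 7, and the higher calls 1, 0, 0, 1, 1, 5 and 4. In mouse 3, 8 of 20 clones had an unadjusted p under 0.05. Of the 62 large clones of day 73, 36 were among the lower calls and 1 among the higher calls. Without mouse 2 there were 42 lower and 12 higher calls. On day 136, 46 of the 47 lower clones were below their day 73 share and 11 of the 12 higher clones were above it. These counts are largely fixed by the choice, since the lower clones were called for a high day 73 share and 10 of the 12 higher clones had 0 templates on day 73. The test uses the same counts that made these clones large, so the share of large clones called is a description.

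The largest clone of mouse 5 on day 73, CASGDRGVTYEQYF (TCRBV13-02, TCRBJ02-07), had 27, 283, 105 and 174 templates on days 65, 73, 126 and 136. Its share fell from 5.65% (95% Wilson interval 5.04% to 6.32%) to 0.879% (95% Wilson interval 0.727% to 1.06%), so 15.6% was kept (Fisher's exact test, adjusted p = 1.15e-69). Over all productive templates it kept 19.7%, against 15.3% for OT-1 in that mouse. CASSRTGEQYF (TCRBV14-01, TCRBJ02-07), the largest of mouse 4 on both days, had 77, 215, 133 and 209 templates. It went from 3.37% to 1.23% and kept 36.4% (95% Katz interval 29.4% to 45.1%; Fisher's exact test, adjusted p = 2.97e-19). Both remained the largest non-OT-1 clone of their mouse on day 126.

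Mouse 2 had no detectable OT-1 and its large clones belong to other receptors. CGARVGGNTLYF (TCRBV20-01, TCRBJ01-03) was its largest clone on both days, with 4, 56, 29 and 47 templates on the 4 days, and kept 35.0% (95% Katz interval 22.4% to 54.7%; Fisher's exact test, adjusted p = 8.2e-06). A TCRBV05-01 and TCRBJ02-07 clone had 0, 55, 7 and 25 templates and kept 8.59% (Fisher's exact test, adjusted p = 2.89e-14). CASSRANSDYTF, chosen after its values were seen because it uses the V segment and the first residues of the OT-1 CDR3, had 0, 34, 9 and 7 templates. It kept 17.9% of its share.

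The clones with the smallest p among the lower calls of mice 1, 6 and 7 kept under 10% of their share. In mouse 1 a TCRBV04-01 and TCRBJ02-07 clone had 5, 13, 1 and 10 templates and kept 5.52%, with a wide 95% Katz interval of 0.723% to 42.2%. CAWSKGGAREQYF of mouse 6 had 14, 58, 8 and 5 templates and kept 9.71% (Fisher's exact test, adjusted p = 1.72e-13). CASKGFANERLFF of mouse 7 had 4, 41, 5 and 10 templates and kept 5.22% (Fisher's exact test, adjusted p = 2.21e-15). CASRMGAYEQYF, the largest of mouse 7 on day 73, had 18, 49, 50 and 51 templates. The non-OT-1 templates of that mouse numbered 4693 on day 73 and 10973 on day 126, so its share fell from 1.04% to 0.456% (Fisher's exact test, adjusted p = 0.000674). The largest of mouse 1 on day 73, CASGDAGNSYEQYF, had 7, 22, 6 and 52 templates and so was highest on day 136.

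Some large clones did not fall. The largest non-OT-1 clone of mouse 6 on both days, a TCRBV14-01 and TCRBJ02-07 rearrangement, had 287, 158, 264 and 383 templates. Its share was 1.94% on day 73 and 2.28% on day 126, and the ratio of 118% had a 95% Katz interval of 96.8% to 143%. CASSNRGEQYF of mouse 7 (TCRBV19-01, TCRBJ02-07) rose from 23 to 274 templates, 5.10-fold in share (95% Katz interval 3.33 to 7.79; Fisher's exact test, adjusted p = 2.95e-19), after 11 templates on day 65 and before 160 on day 136. Without this clone the other 16 large clones of mouse 7 kept 25.2% in place of 63.8%, and without the TCRBV14-01 clone the other 8 of mouse 6 kept 21.6% in place of 55.3%. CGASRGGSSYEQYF, the largest of mouse 1 on day 126, had 6 and 15 templates on days 73 and 126, a difference that was not called (Fisher's exact test, adjusted p = 0.413).

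Of the 12 clones called higher, 10 had 0 templates on day 73 and 8 had 0 on day 65. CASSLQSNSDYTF of mouse 6 had 0 templates on day 73 and 19 on day 126 and was at least 4.46-fold higher, against a floor of 3 templates in the day 73 library. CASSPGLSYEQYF of mouse 1 had 1, 0, 11 and 11 templates (at least 2.63-fold higher) and a TCRBV05-01 and TCRBJ02-01 clone of mouse 5 had 0, 0, 15 and 19 (at least 2.10-fold higher). Neither of these was called when clones were pooled by CDR3 (Fisher's exact test, adjusted p = 0.0549 and 0.1002). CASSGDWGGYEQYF of mouse 4 had 18, 3, 33 and 49 templates, a 6.47-fold higher share with a 95% Katz interval of 1.99 to 21.1. It was thus lowest on day 73, as was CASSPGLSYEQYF.

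Among the large clones, 3 CDR3s were found in more than 1 mouse. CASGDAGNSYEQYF (mice 1 and 5) and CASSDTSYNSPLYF (mice 1 and 6) had the same nucleotide sequence in both mice. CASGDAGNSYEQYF had 8 templates in mouse 5 on day 73 and 0 on the other 3 days. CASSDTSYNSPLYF kept 26.4% in mouse 6, from 104 to 39 templates, and 51.3% in mouse 1, from 7 to 5 templates. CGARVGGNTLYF was encoded with TCRBJ01-03 in mouse 2 and TCRBJ02-04 in mouse 3, at 9 differing bases, and had 8, 12, 9 and 15 templates in mouse 3.

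Large clones were chosen by templates and not by segment or CDR3. A segment with more templates per rearrangement passes that choice more readily, so the counts below are not independent of it. TCRBJ02-07, the J segment of OT-1, was carried by 24 of 62 large clones (38.7%), while it made up 18.3% of the 29318 non-OT-1 rearrangements of day 73 and 29.2% of their templates. TCRBV19-01 was the most frequent V segment, with 7 of 62 (11.3%), against 7.43% of the rearrangements. The median CDR3 had 14 residues and 3 inserted bases in the large clones, and the same in all non-OT-1 rearrangements. No count of these features was tested.

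Most rearrangements of day 73 were not found again on day 126. Of 21652 non-OT-1 rearrangements with 1 template, 0.711% were found, of 7586 with 2 to 4 templates 1.48%, and of 80 with 5 or more templates 66.2%. The Morisita-Horn overlap of non-OT-1 templates, which is 1 for identical and 0 for disjoint repertoires, was 0.0302 to 0.670 between day 73 and day 126 of a mouse (median 0.287) and at most 0.0157 between different mice. It was 0.0413 to 0.828 (median 0.452) between days 126 and 136. The rearrangements with 5 or more templates were thus found again most often, and by number most of those found again, 154 and 112 against 53, had 1 or 2 to 4 templates. Bleeds of different mice shared 7 to 23 rearrangements, and how many of the small ones were persisting clones was not tested.

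Repertoire diversity was measured after each library was thinned to 4281 templates. Richness, the number of different rearrangements, rose from 2643 ± 431 (SD, n = 7) to 3493 ± 220 with OT-1 included, higher in 7 of 7 mice (two-sided exact sign-flip test, p = 0.0156, the lowest that 7 mice can give, adjusted p = 0.0347). The rise was largest in mouse 7, from 1933 to 3292, where OT-1 had held 45.0%. With OT-1 left out, richness rose from 3323 ± 200 to 3739 ± 81.1 (SD, n = 7), again in 7 of 7 mice (exact sign-flip test, p = 0.0156, adjusted p = 0.0347). In mouse 2, which had no OT-1, it went from 3072 to 3611. At the same depth, richness without OT-1 was 3639 ± 102 on day 65 and 3857 ± 125 on day 136 (SD, n = 7). Without mouse 2 the mean rise was 902 rearrangements with and 395 without OT-1 (exact sign-flip test, p = 0.0312 for both). An alternative chosen after seeing the data left out rearrangements with 5 or more templates. Thinned to the smaller depth that this left, it gave a rise of 358 in place of 415 rearrangements (exact sign-flip test, p = 0.0156). These values thus differ in depth as well as in the clones counted.

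The non-productive rearrangements, which encode no receptor, moved in the same direction. At 1922 templates each, their richness rose from 1583 ± 86.8 to 1770 ± 22.2 (SD, n = 7), in 7 of 7 mice (exact sign-flip test, p = 0.0156, adjusted p = 0.0312 over 6 added measures). On day 65 it was 1689 to 1757 and on day 136 it was 1719 to 1830. Among productive non-OT-1 rearrangements, at full depth, the share with 1 template rose by 7.14 percentage points (exact sign-flip test, p = 0.0156, adjusted p = 0.0312). The number of productive templates rose by 2645 (exact sign-flip test, p = 0.0156, adjusted p = 0.0312). These measures moved with the rise in richness, and their part in it was not tested.

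**Figure D4:**
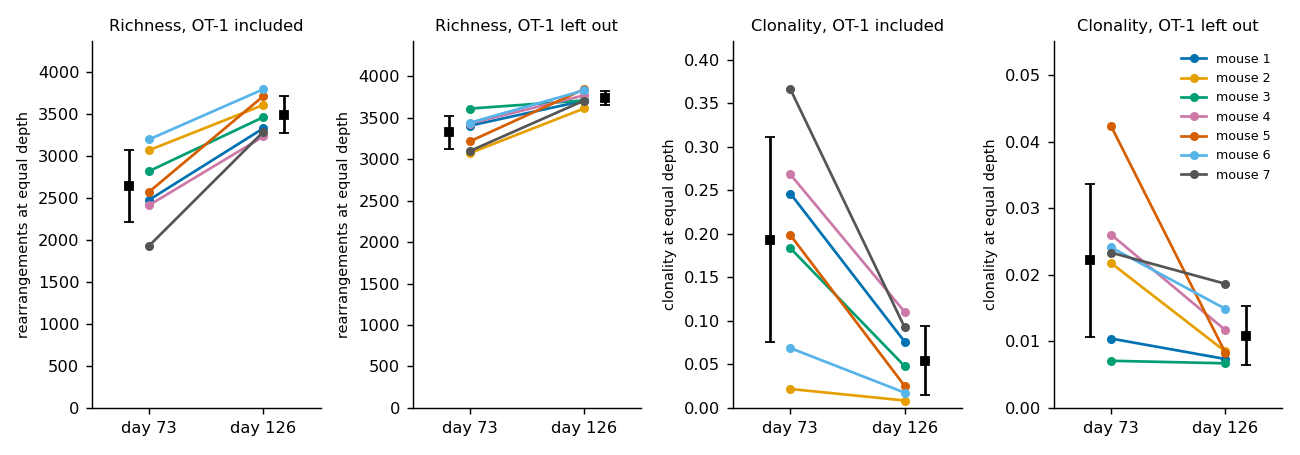
Richness (number of rearrangements) and clonality (0 for even, 1 for a single clone) of each mouse on day 73 and day 126 at 4281 templates, with OT-1 included or left out, with a line per mouse and black squares with bars for the mean and SD of 7 mice. Richness was higher and clonality lower on day 126 in all 7 mice in all panels.

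Clonality, 1 minus the normalized Shannon entropy, fell from 0.193 ± 0.118 to 0.0540 ± 0.0396 (SD, n = 7) with OT-1 included, in 7 of 7 mice (exact sign-flip test, p = 0.0156, adjusted p = 0.0347). Without OT-1 it was 0.0222 ± 0.0115 and 0.0109 ± 0.00446, lower in 7 of 7 mice (exact sign-flip test, p = 0.0156, adjusted p = 0.0347). On days 65 and 136 clonality without OT-1 was 0.00936 ± 0.00391 and 0.0109 ± 0.00607 (SD, n = 7). Mouse 5 had the highest value of day 73, 0.0424, and the largest fall, to 0.00831, and without it the mean change was -0.00750 in place of -0.0113. Without mouse 2 it was -0.0110, and -0.160 with OT-1 included (exact sign-flip test, p = 0.0312 for both). The change without OT-1 did not pass at full depth (-0.00801, exact sign-flip test, p = 0.109) or without rearrangements of 1 template (-0.0104, exact sign-flip test, p = 0.438). The Simpson index, the chance that 2 templates drawn at random belong to 1 clone, was 0.0957% ± 0.116 on day 73 and 0.0279% ± 0.0263 on day 126 (SD, n = 7). It was lower in 6 of 7 mice and higher in mouse 7, and the difference did not pass (exact sign-flip test, p = 0.141). Its change was -0.0246 percentage points without mouse 5 and -0.0830 without mouse 7 (exact sign-flip test, p = 0.0312), against -0.0678 with all mice.

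V and J segment use without OT-1 was compared by edgeR's quasi-likelihood test on template counts with the mouse as a block. Of 23 V segments none was called at an adjusted p under 0.05 (0% called), with 3 at an unadjusted p under 0.05. TCRBV13-03 came closest, from 5.73% ± 0.482 to 6.56% ± 0.472 (SD, n = 7), higher in 7 of 7 mice with a log2 fold change of 0.19 (standard error 0.06 from limma, edgeR adjusted p = 0.0504). TCRBV15-01 went from 3.28% ± 0.452 to 2.70% ± 0.414 (SD, n = 7), lower in 7 of 7 mice with a log2 fold change of -0.27 (standard error 0.08 from limma, edgeR adjusted p = 0.0504). With trimmed-mean (TMM) scaling both were called, at an edgeR adjusted p of 0.0458, without a filter TCRBV15-01 alone, and without mouse 3 TCRBV13-03 alone. DESeq2 and limma called none, and edgeR called none without mouse 2. TCRBV31-01 came next, from 6.09% to 5.44% (edgeR adjusted p = 0.379).

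The most used V segments differed by less than the spread between mice. TCRBV13-02 held 11.3% ± 1.93 on day 73 and 11.1% ± 0.628 on day 126, TCRBV19-01 7.51% ± 0.963 and 7.82% ± 0.896, and TCRBV03-01 6.95% ± 0.376 and 7.19% ± 0.375 (SD, n = 7). The spread of TCRBV13-02 was wider on day 73, when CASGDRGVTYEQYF, a TCRBV13-02 clone, held 5.65% in mouse 5. Of 12 J segments none was called (0% called), with 2 at an unadjusted p under 0.05 in edgeR and 0 called by DESeq2 or limma. TCRBJ01-05 was lower in 7 of 7 mice, at 4.29% ± 0.473 and 3.91% ± 0.242 (SD, n = 7, edgeR adjusted p = 0.221). TCRBJ01-03 went from 6.40% to 5.89% and TCRBJ01-01 from 8.51% to 8.98% (edgeR adjusted p = 0.221 and 0.224). TCRBJ02-07 was the most used, at 29.2% ± 1.40 and 29.0% ± 1.35, followed by TCRBJ02-05 at 9.23% ± 0.702 and 9.74% ± 0.450 (SD, n = 7).

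**Figure D5:**
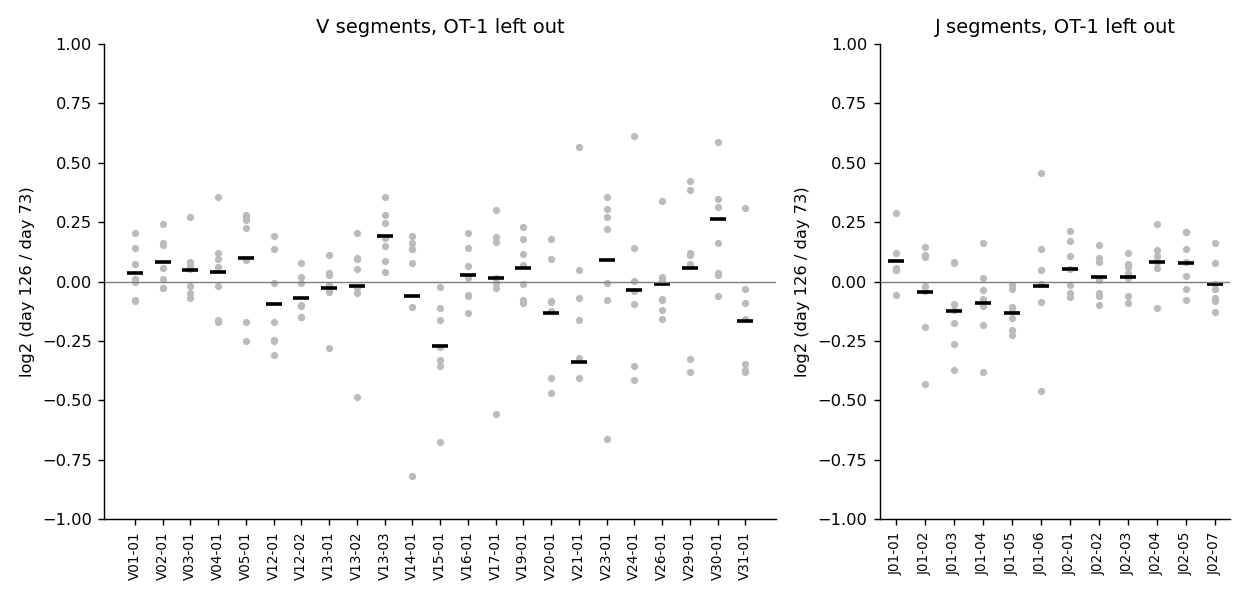
log2 ratio of the day 126 to the day 73 share of each V segment (left) and J segment (right) among non-OT-1 templates, with grey points for the 7 mice (0.1% added to each share) and black bars for the edgeR estimate. No segment passed an adjusted p under 0.05, and the 7 points of TCRBV13-03 lie above 0 and those of TCRBV15-01 and TCRBJ01-05 below it.

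The features of the remaining receptors differed little. The mean CDR3 length of non-OT-1 templates was 13.8 ± 0.0518 residues on day 73 and 13.8 ± 0.0400 on day 126 (SD, n = 7, exact sign-flip test, p = 0.578). The mean number of inserted bases was 3.41 ± 0.0407 and 3.43 ± 0.0400 (SD, n = 7), higher in 6 of 7 mice (exact sign-flip test, p = 0.0469, adjusted p = 0.0703). Non-productive templates made up 32.9% ± 1.59 and 33.8% ± 0.480 of the templates other than OT-1 (SD, n = 7, exact sign-flip test, p = 0.234).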

How the data were processed

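TCRβ CDR3 regions were amplified from genomic DNA of blood in a bias-controlled multiplex PCR and sequenced on the immunoSEQ platform, per the labels. The authors deposited template counts per nucleotide rearrangement, without normalization, and the fraction of all templates that each makes up. In all 28 libraries of cured mice the counts equalled the deposited estimated genome numbers and the fractions equalled count over total within 1e-09. The aligner and genome build are not given in the sources used here. Rows with in-frame status were kept, and OT-1 was the CDR3 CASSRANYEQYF. Rearrangements encoding this CDR3 were counted together, as many as 22 in a library (mouse 4, day 73, with 3226 of 3252 templates in the leading one). Among in-frame rearrangements encoding another CDR3, 2 lay within 2 mismatches of the leading OT-1 rearrangement over the 12 libraries with OT-1. They had 1 template each. Sequencing errors were not merged, and errors that leave the OT-1 CDR3 unchanged were not searched for. All 49 V and J segment names matched a RefSeq symbol (GRCm38.p6 table, used for names only).

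Libraries were thinned without replacement (mean of 100 draws for clonality, exact rarefaction for richness). Mice paired the bleeds by animal code, since both come from the same animal. Within-mouse changes were tested by two-sided exact sign-flip tests, and Benjamini-Hochberg adjustment covered 10 tests. Log2 fractions used 0.5 added templates. Segments with a mean of at least 10 templates per library were tested with edgeR (library size of non-OT-1 templates), and single clones by Fisher's exact test. The standard error beside a segment's fold change comes from limma on log2(percent + 0.1). Wilson (95%) and Katz (95%) intervals and the floor of 3 templates cover counting error only, since amplified templates are not independent samples of the blood.

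Named clones were OT-1, each mouse's largest other clone of either day, each mouse's called clone of smallest adjusted p in each direction, and CDR3s large in at least 2 mice. Named segments were the 3 of smallest p and the 3 most used, and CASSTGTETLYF served as a check for tumor cells. The comparison, these rules and the tests were chosen with earlier results of these data known. Fisher's test per clone and the edgeR segment test were tried on simulated data. The sign-flip function was checked only for its lowest possible p, and rarefaction against random draws. The permutation test, DESeq2 and limma were not tried on simulated data. Alternatives covered denominators, clone definitions, thresholds, depth, filters, other tools, the replicate block and leaving out each mouse. Segment tests ran in R 4.3.3 with edgeR 4.0.16, limma 3.58.1 and DESeq2 1.42.0. All else ran in scipy 1.17.1 and pandas 2.3.3 under python 3.11.15.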

Additional observations from a re-analysis of the deposited data

Results flagged for a closer look

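The Simpson index without OT-1 was 0.341% in mouse 5 on day 73, and the nearest mouse was at 0.130%. The gap was 0.636 of the range of the 7 mice, above Dixon's 95% critical value. Over 16 groups of 7 mice checked this way 1 passed, and chance passes about 1 in 20. In mouse 5 the clone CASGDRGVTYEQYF held 5.65% of non-OT-1 templates on that day.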

How the results depend on the processing

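No result changed direction under the alternatives run, and the mean changes below are day 126 minus day 73. Without the replicate block (exact permutation of all 14 samples), the change in the day 65 clones, -1.80 percentage points, lost its call (p = 0.158). The block changed no other call among OT-1 share, clonality, richness, Simpson index and V and J segments, and log2 fractions, which are ratios within a mouse, were not run without it. Defining large clones from 0.2% took the calls from their share change (-1.27 percentage points), their log2 fraction kept (-0.74) and the OT-1 difference (-1.26). OT-1 in the denominator gave a log2 fraction kept of -0.80, and clonality without OT-1 lost its call at full depth (-0.00801) and without rearrangements of 1 template (-0.0104). Clones chosen on day 126 in place of day 73 had a mean log2 fraction kept of -0.63 in place of -1.40. Lower calls numbered 27 at an adjusted p under 0.01, 28 with at least 10 templates, 14 with no minimum and 26 with both libraries thinned to equal depth, against 47. Higher calls numbered 1 with no minimum and 22 with OT-1 in the denominator, against 12. V segment calls were 2 with TMM scaling and 1 without a filter. The cause of these shifts was not tested.

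Leaving out 1 mouse gave OT-1 share changes of -19.5 to -14.1 percentage points and log2 fractions kept of -2.20 to -1.79. With 5 carriers left the smallest exact p is 0.0625, so those fits cannot pass. The ranges were -1.52 to -1.24 for the day 73 clones, -2.10 to -1.13 percentage points and -1.37 to -0.93 (log2) for the day 65 clones, and -1.21 to -0.74 for the OT-1 difference. Clonality changed by -0.160 to -0.117 with and -0.0131 to -0.00750 without OT-1, richness by 766 to 902 and 380 to 468, and the Simpson index by -0.0830 to -0.0246. There were 34 to 47 lower calls, 7 (without mouse 6) to 12 higher calls, 0 to 1 V segment and 0 J segments. Depth limits single clones, since 3 templates are 0.0234% to 0.0701% of the productive templates of a library.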
